A study of Homo sapiens with 7 samples.

Results

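Genes of the actin cytoskeleton and of contractility were followed across 7 expression arrays of Panc1, an established human cell line from a pancreatic cancer. The list had 40 genes, taken by name, of which 39 had a probe set annotated to a single gene symbol, out of 19775 such genes on the array. FLNA was not analysed here. Where a gene had several probe sets, that with the highest average signal across the arrays stood for it, and its other probe sets, 78 in all, were checked beside it. The arrays compared stable clones grown from single cells and named S100P overexpressing, which carry pcDNA3.1/S100P-V5-His, with clones that carry the empty pcDNA3.1/V5-His. S100P is a small calcium-binding protein, and the study looked for genes that it regulates. The S100P-labelled arm held 4 arrays, 2 of clone 5 and 2 of clone 1. The vector arm held 3 arrays, 1 of clone V1 and 2 of clone V3. All cells were grown in the same serum-containing medium. Each clone belongs to a single arm, so what is particular to a clone and what comes with its plasmid cannot be told apart beyond the 2 clones of an arm. Means and SDs are over arrays.

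Actin filaments are built at their growing ends by formins, branched by the Arp2/3 complex, stopped by capping protein and severed by cofilin. Small GTPases switch these machines on through kinases. Myosin II, driven by phosphorylation of its light chain, pulls on filaments that tropomyosins and cross-linkers hold together. Vinculin, zyxin and paxillin couple the filaments to cell adhesions, and moesin and radixin couple them to the membrane. In carcinoma cells this system sets cell shape, adhesion and movement.

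The values were deposited after RMA and are on the log2 scale, where a difference of 1 means a change of 2-fold. The array medians lay between 4.51 and 4.58, and the a and b arrays of a clone had r = 0.996 to 0.998. The 1 probe set of S100P did not separate the arms. It read 5.36 and 5.45 on clone 5 and 5.80 and 5.95 on clone 1, against 4.65 on V1 and 5.65 and 6.01 on V3, so the groups overlapped. The fitted difference was 0.27 (SE 0.32, limma adjusted p = 0.846). Whether this probe set reads the transcript of the plasmid is not given in the sources used here, so it does not check the labels, and the clones are called S100P-labelled. Of 6 epithelial markers, 4 (KRT8, KRT18, KRT19 and EPCAM) read at least 6 on all 7 arrays. Of 7 smooth muscle markers, SMTN alone did, and LMOD1 and MYOCD lay below the array median on every array. The mean over the smooth muscle list was 5.11 to 5.21 on S100P-labelled arrays and 5.03 to 5.21 on vector arrays. That list includes CNN1 and ACTA2, which are also among the 39. COL1A1 was the 1 marker of 7 for fibroblasts at 6 or more on every array, and there were 0 of 4 for leukocytes and 0 of 4 for endothelium. None of the markers passed the comparison of the arms at an adjusted p of 0.05 in limma. As a measure of RNA quality, the 3′ minus 5′ difference of ACTB was 0.29 and 0.27 on clone 5, 0.53 and 0.44 on clone 1, 0.18 on V1, and 0.28 and 0.32 on V3. That of GAPDH was 0.074 and 0.055 on clone 5, 0.079 and 0.082 on clone 1, 0.007 on V1, and 0.092 and 0.139 on V3.

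Between the arms, most of the actin and contractility genes differed little at their brightest probe set. CRACD, an inhibitor of capping protein, and PPP1R9A, a scaffold that binds filaments, fell in the S100P-labelled clones, and no gene of the 39 rose. The fall was 13.6-fold for CRACD and 4.79-fold for PPP1R9A. The other 37 genes did not pass. Their fitted differences ran between -1.75 for MYLK and 0.47 for VCL. In all, 34 of the 39 differences were smaller than 0.5 in size, where 91.59% of all genes had a difference that small. The median over the 39 was -0.097, against -0.0 over all 19775 genes, and 24 of the 39 lay below 0, against 50.04% of all genes. A gene counted as passed at a limma adjusted p under 0.05, adjusted over the 54613 probe sets tested. On that rule 2 of 39 passed (5.13%), against a background of 1.55% of all genes. Both were lower, where the background is 0.526%. The count of higher genes was 0, where the background is 1.03%. At an unadjusted limma p under 0.05, 1 was higher and 10 were lower, with no background taken at that level. The list was chosen with earlier results of these data known, so these shares and those below do not test it. The background was also not matched for signal, while 35 of the 39 genes lay below the array median on 0 arrays. In RNA from a whole culture, fewer cells with a transcript and less transcript per cell cannot be told apart.

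**Figure D1:**
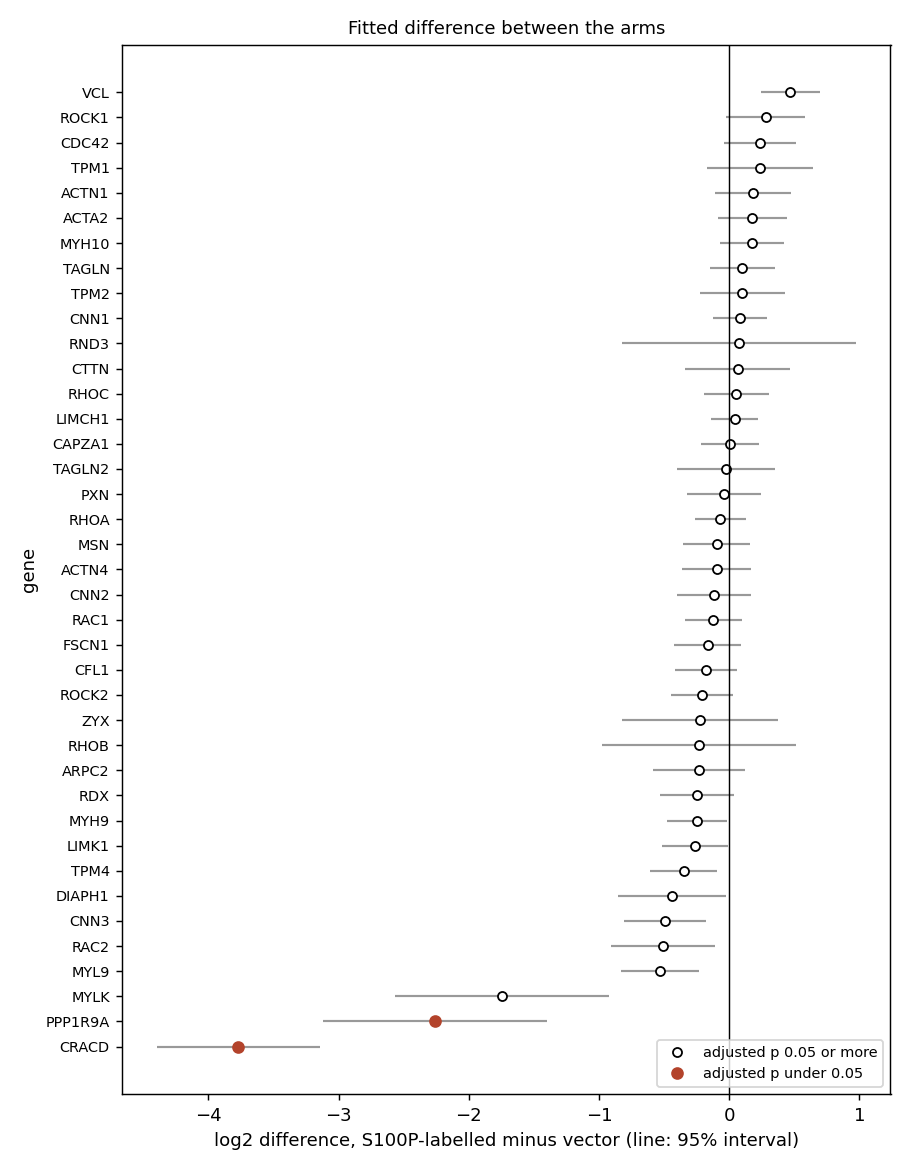
Fitted log2 difference, S100P-labelled minus vector, for the 39 genes, each at its probe set of highest mean. Points are limma estimates, lines their unadjusted 95% intervals, and filled points have an adjusted p under 0.05. CRACD at -3.77 and PPP1R9A at -2.26 are the filled points, and VCL at 0.47 lies highest.

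The same contrast was also read array by array. In 9 of the 39 genes (23.1%) every S100P-labelled array read below every vector array, where 5.51% of all genes did so. They were RAC2, ROCK2, MYL9, MYLK, MYH9, CRACD, TPM4, CNN3 and PPP1R9A. In 1 gene, VCL (2.56%), every S100P-labelled array read above every vector array, against 8.67% of all genes. Because the list was chosen with earlier results of these data known, these shares do not test it. The exact two-sided permutation test used here doubles the smaller tail. With 4 arrays against 3 it cannot give a p below 0.0571, and over the 4 clone means none below 0.333. No single gene can therefore pass that test here.

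**Figure D2:**
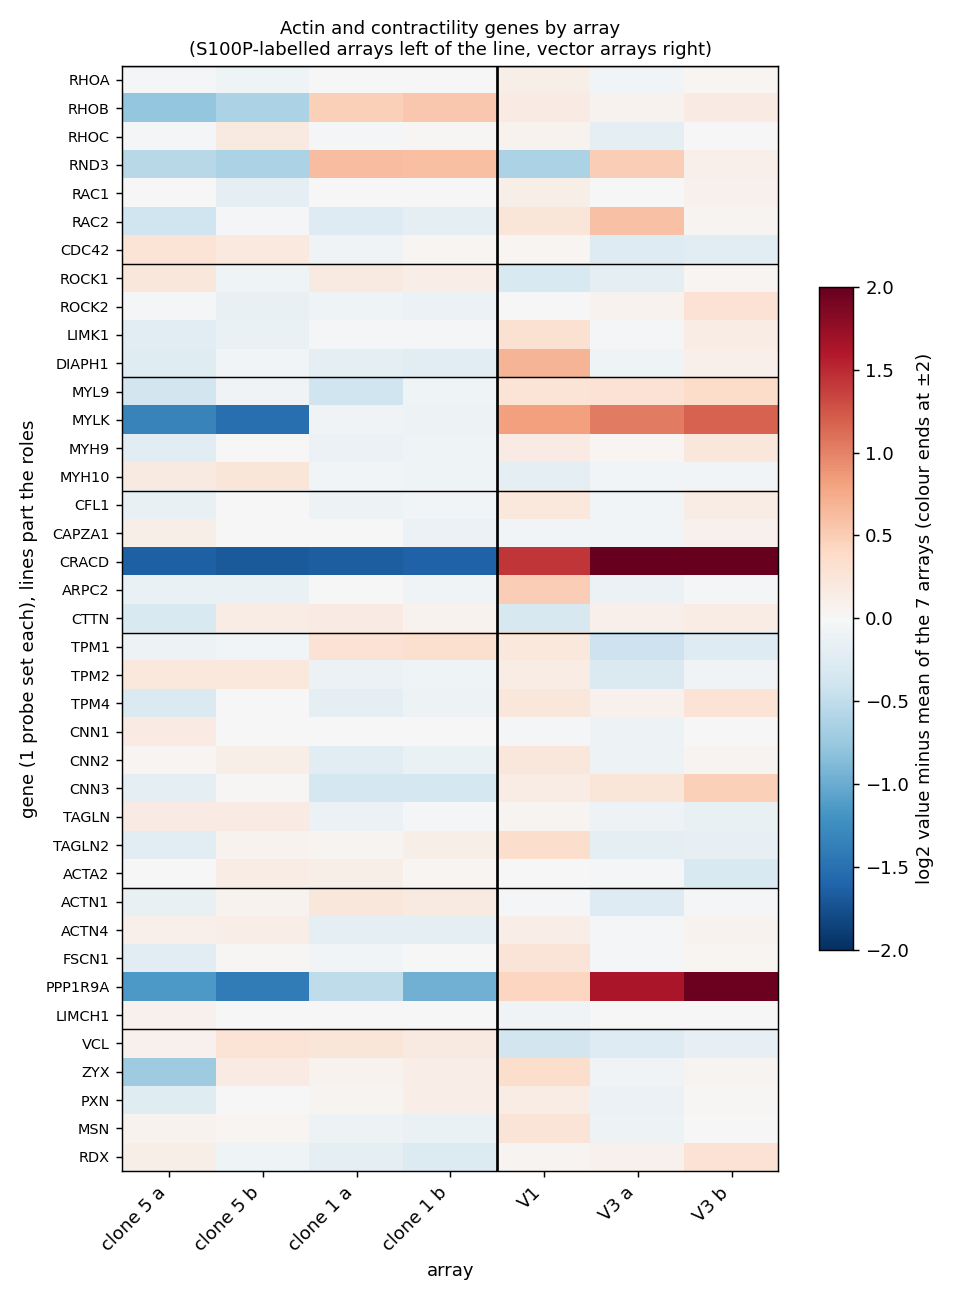
Log2 value of each gene on each array minus that gene's mean over the 7 arrays, with genes down the page in order of role and arrays across. CRACD and PPP1R9A are blue on all 4 S100P-labelled arrays and red on all 3 vector arrays, MYLK is darkest blue on clone 5, and RHOB and RND3 change colour between clone 5 and clone 1.

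The filament turnover group held both the largest difference and some of the steadiest genes. CRACD binds capping protein and keeps it from closing the growing ends of filaments. It read 3.69 and 3.62 on clone 5 and 3.67 and 3.69 on clone 1, against 6.74 on V1 and 7.94 and 7.83 on V3. The 4 S100P-labelled values lay within a narrow band below the array median, and all 3 vector values lay far above it. The mean was 3.67 ± 0.03 in S100P-labelled clones (SD, n = 4) and 7.50 ± 0.67 in vector clones (SD, n = 3). CRACD fell by 3.77 on the log2 scale (SE 0.27, 95% interval -4.39 to -3.15, limma adjusted p = 0.000892). Values this low have no detection call in the deposited table, so the fold is that of the fit. With the arrays of each clone averaged first, which leaves 4 values, the difference was -3.64 with an adjusted p of 0.241. The vector clones differed too, with V1 lower than V3 by a fitted -1.15 (SE 0.11, limma adjusted p = 0.00337). CRACD was also called at its second probe set, which read 2.57 and 2.47 on clone 5 and 2.46 and 2.65 on clone 1, against 3.64 on V1 and 4.05 and 4.42 on V3. There it fell by 1.47 (SE 0.19, limma adjusted p = 0.013), although that probe set lay below the array median on every array. This second call was lost without clone 5 array b (adjusted p = 0.0719) and without V3 array a (adjusted p = 0.0716). Its remaining probe set, also below the array median on every array, gave -0.0.

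PPP1R9A, also called neurabin, binds actin filaments and protein phosphatase 1 and is best known from neurons. It read 3.14 and 2.90 on clone 5 and 3.79 and 3.33 on clone 1, against 4.72 on V1 and 5.92 and 6.25 on V3. The arms did not overlap, and within the vector arm V1 lay well below V3. The mean was 3.29 ± 0.38 in S100P-labelled clones (SD, n = 4) and 5.63 ± 0.80 in vector clones (SD, n = 3). PPP1R9A fell by 2.26 on the log2 scale (SE 0.38, 95% interval -3.12 to -1.40, limma adjusted p = 0.0342). The call rested on several single arrays. It was lost without clone 1 array b, clone 5 array a, clone 5 array b, V3 array a or V3 array b, with an adjusted p of 0.0806, 0.0995, 0.128, 0.149 and 0.111 in that order, and it stood without clone 1 array a (0.0445) and without V1 (0.00231). It was also lost with the arrays of each clone averaged first (-2.11, adjusted p = 0.477), with gene means (0.0553), and without clone 1 (0.0508), clone 5 (0.0993) or V3 (0.107). The 3 other probe sets of PPP1R9A lay below the array median on all arrays, and their differences were -0.53, -0.23 and -0.11.

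The promoters of these 2 genes are shown because they were the 2 that passed between the arms. Both windows are from RefSeq on GRCh38.p14 and run from 250 bases before the annotated transcription start to 50 bases after it, 5′ to 3′. CRACD has 2 windows in the table. The one shown is chr4:56048848-56049147 on the plus strand, and the other, at chr4:56169945-56170244, holds 0 GGGCGG matches and is 43.7% G and C. PPP1R9A has its window at chr7:94907344-94907643 on the plus strand. Capitals mark GGGCGG, the GC box bound by SP1-type factors.
CRACD promoter: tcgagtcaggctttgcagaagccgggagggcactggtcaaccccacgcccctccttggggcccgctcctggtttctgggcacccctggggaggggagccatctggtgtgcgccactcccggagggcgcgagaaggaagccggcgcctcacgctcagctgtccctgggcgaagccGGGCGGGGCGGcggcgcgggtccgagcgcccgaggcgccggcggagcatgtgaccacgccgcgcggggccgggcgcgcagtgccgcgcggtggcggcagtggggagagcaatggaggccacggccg
PPP1R9A promoter: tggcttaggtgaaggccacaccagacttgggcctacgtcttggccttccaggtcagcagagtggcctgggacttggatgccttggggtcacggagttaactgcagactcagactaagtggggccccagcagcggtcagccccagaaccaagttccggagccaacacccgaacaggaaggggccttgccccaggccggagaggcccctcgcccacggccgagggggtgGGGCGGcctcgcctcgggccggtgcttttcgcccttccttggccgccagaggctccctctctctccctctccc
In CRACD 2 overlapping matches began at -76 and -71 relative to the start, and in PPP1R9A 1 match began at -23. The CRACD window shown was 75.7% G and C and the PPP1R9A window 66.7%. This motif is common, being held on either strand by 44.954% of the 35116 promoter windows in the table.

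The other genes of filament turnover did not pass between the arms. CFL1, the filament-severing cofilin, had a fitted difference of -0.18 at its brightest probe set. A second bright CFL1 probe set read 12.13 and 12.41 on clone 5 and 12.08 and 12.15 on clone 1, against 12.83 on V1 and 12.57 and 12.57 on V3. There the arms did not overlap, and the difference was -0.48 (limma adjusted p = 0.147). CAPZA1, a subunit of capping protein, had 0.01. ARPC2, a subunit of the Arp2/3 complex, read 11.49 and 11.48 on clone 5 and 11.61 and 11.54 on clone 1, against 12.11 on V1 and 11.50 and 11.58 on V3. The V1 array alone stood apart, and the arms overlapped (-0.23, SE 0.15, limma adjusted p = 0.65). Without V3 the difference of ARPC2 was -0.58 with an adjusted p of 0.0449. CTTN, cortactin, which stabilises branched filaments, had 0.06 at its brightest probe set. Its other probe sets disagreed. They gave -0.72, -0.67, 0.02 and 0.61, with all S100P-labelled arrays below all vector arrays at the first 2 and above them at the last. None of these passed, the nearest being the probe set at 0.61 (limma adjusted p = 0.0599).

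The myosin motor and its kinase gave the next largest difference. MYLK, myosin light chain kinase, read 6.77 and 6.60 on clone 5 and 8.03 and 7.996 on clone 1, against 8.92 on V1 and 9.14 and 9.28 on V3. The arms did not overlap, and clone 5 lay far below clone 1. The mean was 7.35 ± 0.77 in S100P-labelled clones (SD, n = 4) and 9.11 ± 0.18 in vector clones (SD, n = 3). The fitted difference of -1.75 (SE 0.36, 3.35-fold in size) did not pass (limma adjusted p = 0.0693). It passed without clone 1 (-2.46, adjusted p = 0.003) and without clone 5 (-1.11, adjusted p = 0.0201). A second bright MYLK probe set read 6.82 and 6.39 on clone 5 and 7.48 and 7.48 on clone 1, against 8.41 on V1 and 7.36 and 7.68 on V3. There the arms overlapped, and the difference was -0.82 (SE 0.34, limma adjusted p = 0.384).

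MYL9, the regulatory light chain that this kinase phosphorylates, read 7.10 and 7.39 on clone 5 and 7.07 and 7.38 on clone 1, against 7.73 on V1 and 7.75 and 7.84 on V3. All 4 S100P-labelled values lay below the vector values, with as much spread between arrays of a clone as between clones. The difference of -0.53 (SE 0.13, 1.45-fold in size) did not pass (limma adjusted p = 0.12). MYH9, the heavy chain of non-muscle myosin IIA, read 8.99 and 9.20 on clone 5 and 9.09 and 9.12 on clone 1, against 9.38 on V1 and 9.24 and 9.43 on V3. Its arms stood just clear of each other, with a difference of -0.25 (SE 0.10, limma adjusted p = 0.377). MYH10, the heavy chain of myosin IIB, had a difference of 0.17 at its brightest probe set (limma adjusted p = 0.623).

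**Figure D3:**
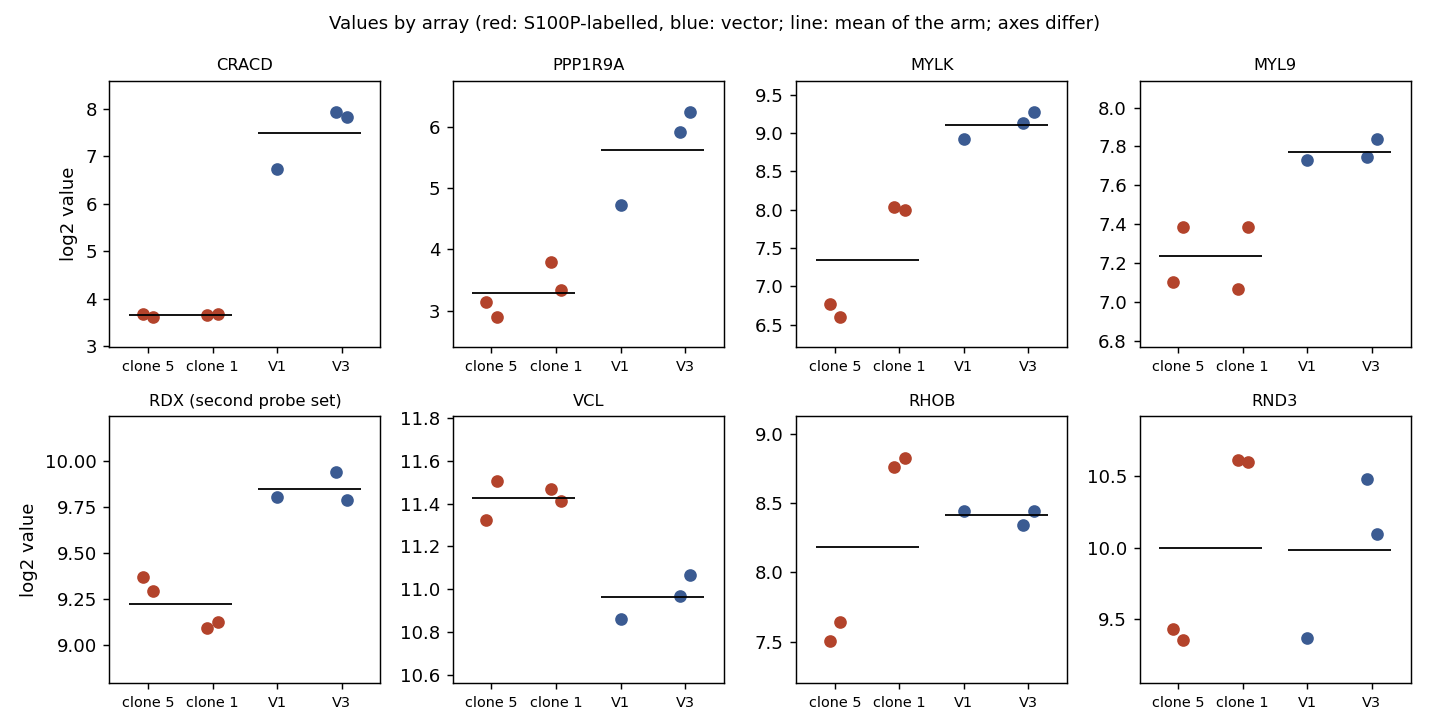
Log2 value on each array for 8 genes, with clone 5, clone 1, V1 and V3 from left to right, 1 point per array and a line at the mean of each arm; the axes differ between panels and do not start at 0. CRACD, PPP1R9A, MYLK, MYL9 and the second probe set of RDX lie lower on all S100P-labelled arrays, VCL lies higher, and RHOB and RND3 split the S100P-labelled arm by clone.

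Among the 7 small GTPases none passed between the arms. RHOA, the main activator of myosin contractility in the family, had a difference of -0.07, RHOC 0.06 and RAC1, which drives lamellipodia, -0.12. The 2 other bright RAC1 probe sets gave -0.40 and -0.39, with every S100P-labelled array below every vector array, and did not pass (limma adjusted p = 0.204 and 0.265). CDC42, which drives filopodia, read 12.10 and 12.03 on clone 5 and 11.77 and 11.87 on clone 1, against 11.87 on V1 and 11.57 and 11.63 on V3. The V1 value fell between those of clone 1, so the arms overlapped, and the difference was 0.24 (SE 0.12, limma adjusted p = 0.503). Another bright CDC42 probe set gave -0.37, so the direction depended on the probe set. RAC2, a GTPase chiefly of blood cells, read 3.79 and 4.15 on clone 5 and 3.95 and 4.02 on clone 1, against 4.45 on V1 and 4.78 and 4.25 on V3. The values did not overlap but lay below the array median on 6 of the 7 arrays, and the difference was -0.51 (SE 0.17, limma adjusted p = 0.282).

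RHOB and RND3 split the S100P-labelled arm by clone. RHOB is a short-lived small GTPase of endosomes. It read 7.50 and 7.64 on clone 5 and 8.76 and 8.83 on clone 1, against 8.45 on V1 and 8.34 and 8.45 on V3. Clone 5 lay below the vector clones and clone 1 above them, so the difference of the arms was small, at -0.23 (SE 0.33, limma adjusted p = 0.878). It was -0.83 without clone 1 (adjusted p = 0.0148) and 0.38 without clone 5. RND3 is an atypical GTPase that counteracts RHOA and ROCK1. It read 9.44 and 9.36 on clone 5 and 10.61 and 10.60 on clone 1, against 9.37 on V1 and 10.48 and 10.10 on V3. High and low values occurred in each arm, and the difference was 0.07 (SE 0.39, limma adjusted p = 0.973). Its sign turned without clone 1 (-0.68), clone 1 array a (-0.205), clone 1 array b (-0.169) or V1 (-0.29).

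The kinases and the formin downstream of the GTPases did not pass either. ROCK1, a kinase that raises myosin phosphorylation, read 9.89 and 9.58 on clone 5 and 9.84 and 9.79 on clone 1, against 9.36 on V1 and 9.48 and 9.70 on V3. The arms overlapped, with a difference of 0.28 (SE 0.13, limma adjusted p = 0.469). Its relative ROCK2 read 8.94 and 8.83 on clone 5 and 8.89 and 8.86 on clone 1, against 8.98 on V1 and 9.05 and 9.27 on V3. The arms were separate by a small margin, and the difference was -0.21 (SE 0.10, limma adjusted p = 0.501).

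LIMK1, which phosphorylates and so inhibits cofilin, read 5.87 and 5.96 on clone 5 and 6.07 and 6.06 on clone 1, against 6.40 on V1 and 6.07 and 6.25 on V3. The arms met at a V3 array, and the difference was -0.26 (SE 0.11, limma adjusted p = 0.393). DIAPH1, a formin activated by RHOA, read 8.92 and 9.11 on clone 5 and 8.99 and 8.96 on clone 1, against 9.84 on V1 and 9.08 and 9.27 on V3. V1 stood above the other arrays, the arms overlapped, and the difference was -0.44 (SE 0.18, limma adjusted p = 0.387). Without V3 it was -0.84 with an adjusted p of 0.0367.

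Tropomyosins, which line and stabilise filaments, and the calponins and transgelins that bind them gave 0 of 9 genes past the threshold. Their differences ran from -0.49 for CNN3 to 0.24 for TPM1. CNN3, the calponin of non-muscle cells, read 8.54 and 8.77 on clone 5 and 8.38 and 8.39 on clone 1, against 8.88 on V1 and 8.97 and 9.22 on V3. The arms did not overlap at this probe set (SE 0.14, limma adjusted p = 0.176), and the other CNN3 probe set gave 0.19. TPM4 read 7.76 and 8.04 on clone 5 and 7.86 and 7.95 on clone 1, against 8.27 on V1 and 8.14 and 8.33 on V3. The arms were separate here too, with a difference of -0.35 (SE 0.11, limma adjusted p = 0.252). The other bright TPM4 probe sets gave -0.45 and -0.35. TPM1 read 10.33 and 10.38 on clone 5 and 10.73 and 10.77 on clone 1, against 10.64 on V1 and 10.03 and 10.19 on V3. The arms overlapped, with the clones of each arm apart (SE 0.18, limma adjusted p = 0.712). Markers of smooth muscle cells in this group were level, with differences of 0.08 for CNN1, 0.10 for TAGLN and 0.18 for ACTA2, the smooth muscle actin. TPM2 had 0.10, with -0.37 to 0.03 at its other probe sets, TAGLN2 -0.03 and CNN2 -0.12. The CNN2 probe set is of the _x_at class, whose probes can also bind other sequences. That makes its gene uncertain, and the same holds for ZYX.

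The cross-linkers other than PPP1R9A had differences between -0.17 and 0.18. ACTN1 and ACTN4, the alpha-actinins of stress fibres, had 0.18 and -0.10, and FSCN1, which bundles filaments in filopodia, had -0.17, and -0.29 at its other probe set. LIMCH1, an activator of non-muscle myosin II, lay below the array median on all 7 arrays at each of its 4 probe sets. Nothing can be read from its difference of 0.04.

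Among the proteins of adhesions and the membrane, VCL stood on the higher side. VCL, vinculin, links integrin adhesions to actin. It read 11.32 and 11.51 on clone 5 and 11.47 and 11.41 on clone 1, against 10.86 on V1 and 10.97 and 11.07 on V3. All S100P-labelled values exceeded all vector values. The mean was 11.43 ± 0.08 in S100P-labelled clones (SD, n = 4) and 10.96 ± 0.10 in vector clones (SD, n = 3). The difference of 0.47 (SE 0.10, 95% interval 0.25 to 0.69) did not pass (limma adjusted p = 0.0713). The other VCL probe set lay below the array median on all 7 arrays, so its difference of -0.01 says nothing on VCL.

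RDX, radixin, which ties filaments to the membrane, read 11.19 and 10.99 on clone 5 and 10.88 and 10.81 on clone 1, against 11.13 on V1 and 11.17 and 11.37 on V3. At this brightest probe set the arms overlapped (-0.25, SE 0.12, limma adjusted p = 0.504). A second RDX probe set read 9.37 and 9.30 on clone 5 and 9.09 and 9.12 on clone 1, against 9.80 on V1 and 9.94 and 9.79 on V3. There the arms were well apart, and RDX fell by 0.62 (SE 0.10, 1.54-fold, limma adjusted p = 0.0342). The other two gave -0.47 and -0.28, so all 4 RDX probe sets lay below 0. The call of the second was lost without clone 1 array a (0.0568), clone 1 array b (0.0772), clone 5 array b (0.136), V3 array a (0.112) or V3 array b (0.0919). It was also lost with the arrays of each clone averaged first (0.41), after quantile normalization (0.0524), with the filter on dim probe sets (0.0717) and without V3 (0.0967). It stood without clone 5 array a (0.0475) and without V1 (0.0261), and in all passed in 6 of 15 alternatives.

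ZYX, zyxin, which gathers at strained stress fibres, read 7.94 and 8.82 on clone 5 and 8.72 and 8.78 on clone 1, against 9.01 on V1 and 8.59 and 8.71 on V3. A single array, clone 5 a, lay below all others, and the difference was -0.23 (SE 0.26, limma adjusted p = 0.844). PXN, paxillin, had a difference of -0.04. Its second bright probe set gave -0.56 (SE 0.28, limma adjusted p = 0.498), with 8.68 on V1 and 7.20 to 7.77 on the other arrays. MSN, moesin, had -0.10.

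**Figure D4:**
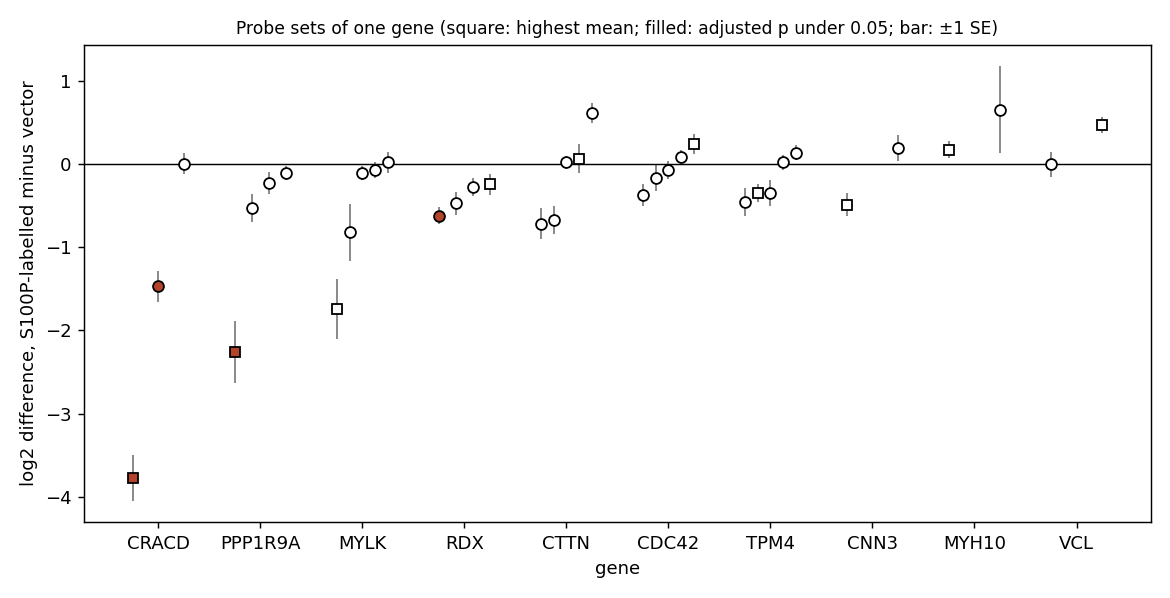
Log2 difference, S100P-labelled minus vector, at every probe set of 10 genes, with squares for the probe set of highest mean, bars for 1 SE either way and filled symbols for an adjusted p under 0.05. CRACD falls at 2 of its 3 probe sets, RDX lies below 0 at all 4, CTTN spreads from -0.72 to 0.61, and CNN3 has a second probe set above 0. The second VCL probe set, near 0, is below the array median throughout.

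The clones of an arm were then compared with each other in limma, with the spread between arrays of a clone as the error. This compares these clones and says nothing about S100P. Clone 5 was lower than clone 1 in RHOB, RND3 and MYLK. RHOB was lower by 2.33-fold (log2 difference -1.22, SE 0.10, limma adjusted p = 0.00261), RND3 by 2.31-fold (-1.21, SE 0.13, adjusted p = 0.00948) and MYLK by 2.52-fold (-1.33, SE 0.10, adjusted p = 0.00241). For these genes the gap between the clones was several times the gap between arrays of a clone. They were 3 of the 39 (7.69%), against a background of 3.02% of all genes in either direction and 2.35% lower. At an unadjusted limma p under 0.05, 5 of the 39 were lower and 6 higher, with no background taken at that level. At the adjusted threshold no gene was higher (0 of 39 by limma), where the background is 0.673%. The other 36 differences ran from -0.54 to 0.32. MYLK was also lower in clone 5 at its second bright probe set (-0.88, SE 0.16, adjusted p = 0.0474), and MYH10 was higher in clone 5 at its dimmer probe set (1.46, SE 0.21, adjusted p = 0.0196). That MYH10 probe set read 7.09 and 7.21 on clone 5 and 5.46 and 5.92 on clone 1, against 4.95 on V1 and 6.55 and 6.03 on V3. With 3 residual degrees of freedom these calls were fragile. Leaving out any array of clone 5, clone 1 or V3 left 0 genes of the 39 and 0 probe sets in all past the threshold in limma, with 4468 to 11537 probe sets at an unadjusted p under 0.05. The ACTB 3′ minus 5′ difference, 0.29 and 0.27 on clone 5 and 0.53 and 0.44 on clone 1, moved with these clones. That of GAPDH, 0.074 and 0.055 on clone 5 and 0.079 and 0.082 on clone 1, differed little. The part of RNA quality in the result was not tested.

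The vector clones differed in more genes. V1 was higher than V3 in DIAPH1 (log2 difference 0.67, SE 0.13, 1.59-fold, limma adjusted p = 0.036), ARPC2 (0.57, SE 0.11, adjusted p = 0.0285) and TPM1 (0.53, SE 0.12, adjusted p = 0.0445). V1 was lower than V3 in RND3 (-0.92, SE 0.16, adjusted p = 0.0234), CRACD (-1.15, 2.21-fold in size) and PPP1R9A (-1.36, SE 0.22, 2.57-fold in size, adjusted p = 0.0181). The 6 genes were 15.4% of the 39, against 7.72% of all genes, with 3 higher where the background is 2.64% and 3 lower where it is 5.08%. V1 is a single array and was assumed to vary like the others. Leaving out any 1 array of clone 5, clone 1 or V3 left 0 or 1 of the 39, the 1 being CRACD without clone 5 array a or b. At the probe set of highest mean, CRACD and PPP1R9A, which fell between the arms, were thus also those whose vector clones lay farthest apart. Each gap was at least 1 unit of log2. For the S100P-labelled clones these genes were RHOB, RND3 and MYLK. Dimmer probe sets of genes outside the 6 also parted V1 from V3 past the threshold in limma. V1 was lower in MYH10 (-1.34, a larger gap than that of CRACD). It was higher in MYLK (0.89), ACTN1 (0.81 and 0.82), TAGLN2 (0.72), TPM2 (0.56), ROCK2 (0.49) and PXN.

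**Figure D5:**
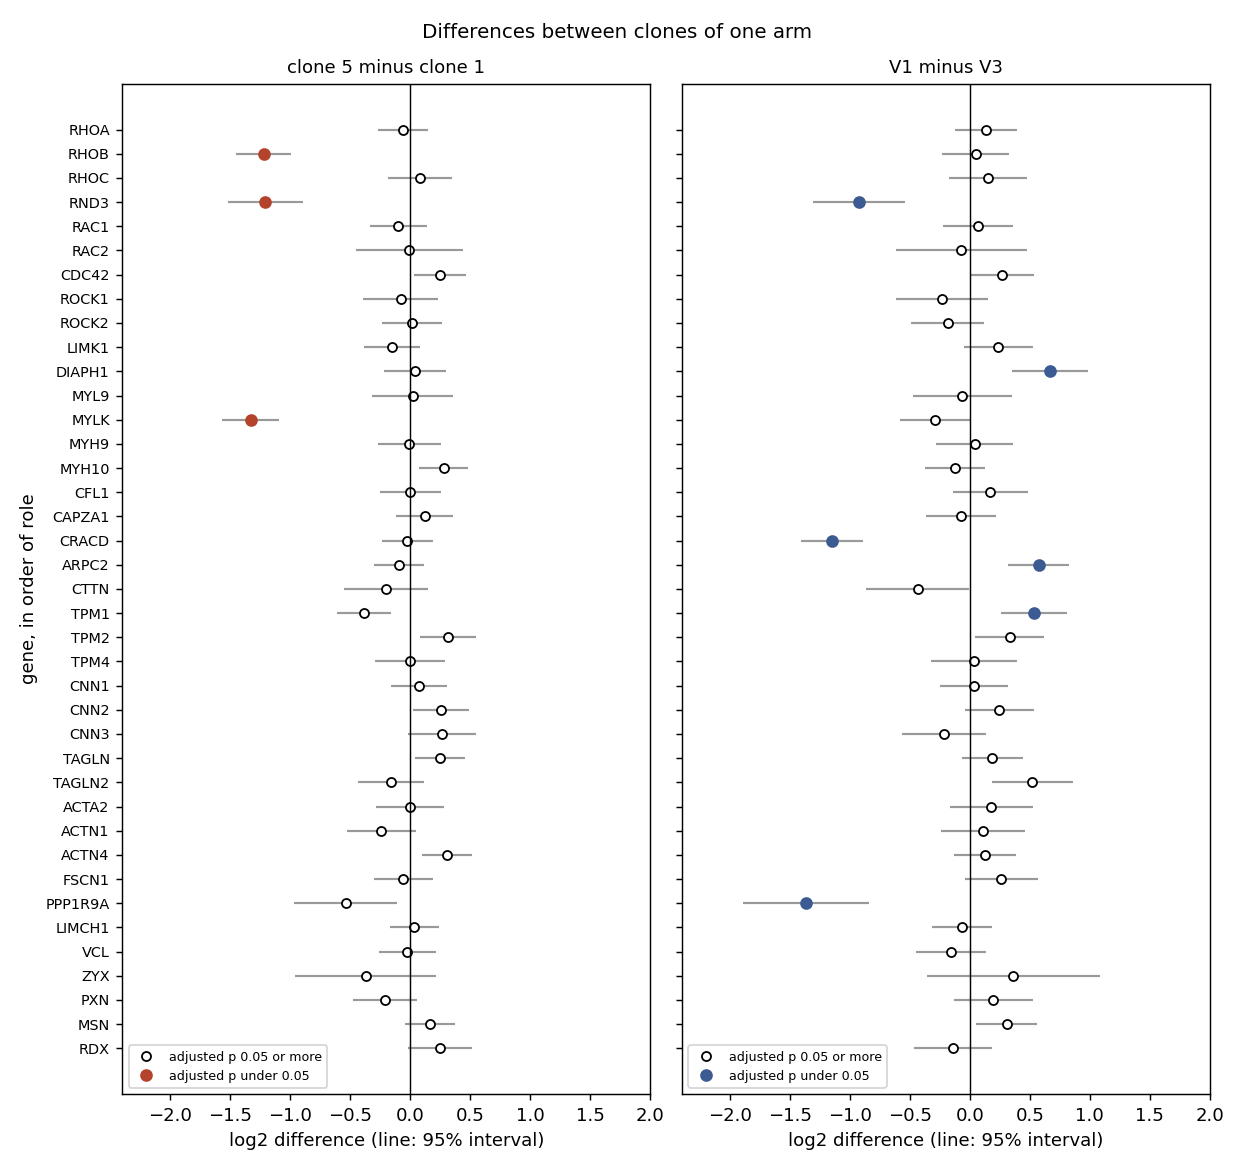
Log2 differences between clones of an arm, clone 5 minus clone 1 on the left and V1 minus V3 on the right, with unadjusted 95% intervals and filled points for a limma adjusted p under 0.05. RHOB, RND3 and MYLK are filled on the left, and RND3, DIAPH1, CRACD, ARPC2, TPM1 and PPP1R9A on the right.

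Each S100P-labelled clone was set against the vector clones, with V1 and V3 given equal weight. The error was again the spread between arrays of a clone, so the gap between V1 and V3 does not enter the p-values below. The 2 comparisons share the vector arrays and so are not independent of each other. CRACD was lower in both, at -3.66 in clone 5 and -3.63 in clone 1 (limma adjusted p = 3.73e-06 and 3.36e-06). So was PPP1R9A, at -2.38 in clone 5 and -1.84 in clone 1 (0.000697 and 0.000841), and MYLK, at -2.38 in clone 5 and -1.05 in clone 1 (5.1e-05 and 0.0008). DIAPH1 was lower to a smaller extent, at -0.49 in clone 5 and -0.53 in clone 1 (0.036 and 0.016). VCL was higher by 0.48 in clone 5 and 0.50 in clone 1 (0.0301 and 0.0147). RHOB went opposite ways, at -0.85 in clone 5 and 0.37 in clone 1 (0.00324 and 0.038). With the arrays of each clone averaged first, CRACD, PPP1R9A and MYLK did not pass between the arms. The limma adjusted p was then 0.241, 0.477 and 0.523 in that order.

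Other genes passed in 1 clone. In clone 1 RND3 was higher by 0.78 (limma adjusted p = 0.00731) and TPM1 by 0.37 (0.0351), where clone 5 had -0.43 for RND3 (0.0958) and -0.01 for TPM1 (0.952). CNN3 was lower in clone 1, at -0.60 (0.0142), and MYL9 likewise, at -0.54 (0.0411), where clone 5 had -0.34 for CNN3 (0.145) and -0.52 for MYL9 (0.0697). The difference between the clones was itself called for RND3, RHOB and MYLK, and not for TPM1, CNN3 or MYL9. Clone 5 gave 6 of 39 genes (15.4%), 1 higher and 5 lower, against backgrounds of 8.59%, 5.65% and 2.94%. Clone 1 gave 10 of 39 (25.6%), 4 higher and 6 lower, against backgrounds of 17.5%, 11.7% and 5.75%. Without an array of clone 5 the first count was 2, and without an array of clone 1 the second was 2, while leaving out an array of the other S100P-labelled clone or of V3 gave 3 or 4 for clone 5 and 5 to 7 for clone 1.

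Windows of MYLK and RND3 are shown because these genes parted the 2 S100P-labelled clones and hold a CArG box, the motif bound by SRF, a factor known to drive many genes of the actin cytoskeleton. MYLK has 1 window in the table. Which MYLK transcript starts there was not looked at, so it may not be the promoter of the kinase transcript. RND3 has 2 windows in the table that overlap, of which the first is shown. The MYLK window is chr3:123620499-123620798 on the minus strand and the RND3 window shown is chr2:150487646-150487945 on the minus strand, from RefSeq on GRCh38.p14, 5′ to 3′. Capitals mark the CArG box.
MYLK promoter: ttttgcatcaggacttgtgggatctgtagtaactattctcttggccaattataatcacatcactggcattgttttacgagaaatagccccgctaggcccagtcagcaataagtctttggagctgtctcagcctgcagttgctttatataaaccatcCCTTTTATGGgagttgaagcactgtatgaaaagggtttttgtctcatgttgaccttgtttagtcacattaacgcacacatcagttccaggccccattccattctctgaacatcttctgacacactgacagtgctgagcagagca
RND3 promoter: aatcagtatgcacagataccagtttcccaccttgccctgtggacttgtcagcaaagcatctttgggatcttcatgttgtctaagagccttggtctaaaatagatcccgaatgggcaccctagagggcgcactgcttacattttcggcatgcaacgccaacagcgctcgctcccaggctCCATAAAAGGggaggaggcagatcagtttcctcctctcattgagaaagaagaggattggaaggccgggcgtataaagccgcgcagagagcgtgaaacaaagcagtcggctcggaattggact
The match began at -94 in MYLK and at -72 in RND3, relative to the annotated start of the window shown. From the other annotated start of RND3 the same match lies at -100. In all, 33 of the 39 genes had a window in the table. MYL9, FSCN1, RAC1, CTTN, RAC2 and TAGLN were not looked at. A CArG box on either strand was in a window of 6 of the 33 (ACTN1, CNN2, MYLK, RND3, ROCK2 and TPM4), where 1.604% of the 27305 genes of the table and 1.293% of its windows held it. TATAAA was in 6 of the 33, against 13.986% of genes and 11.53% of windows, and GGGCGG in 31 of the 33, against 48.303% of genes. Matches on the 2 strands may overlap each other, and in 0 of the 33 did a CArG box overlap a TATAAA match. RHOB, which moved with MYLK and RND3 between the clones, had a GGGCGG match and no CArG box in its window. A match is a run of letters and was not tested as a binding site.

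The wider pathway was read from 7 further lists of actin and myosin genes, with 131 of 147 genes measured. Here 2 genes rose and 2 fell between the arms, at a median of -0.009, where 1.03% of all genes rose and 0.526% fell. The share that rose was thus near the background and the share that fell was above it, on 2 genes each. These lists too were chosen with earlier results of these data known. PALLD, palladin, which organises stress fibres with alpha-actinin, read 6.70 and 7.25 on clone 5 and 7.04 and 6.96 on clone 1, against 4.96 on V1 and 5.25 and 5.09 on V3. The arms lay far apart, and PALLD rose by 1.91 (SE 0.17, 3.75-fold, limma adjusted p = 0.00219). At a second probe set it rose by 1.71 (limma adjusted p = 0.0152). The other two, below the array median on every array, gave 0.38 (0.393) and -0.09 (0.802). LIMA1, which bundles filaments and slows their disassembly, read 9.85 and 9.80 on clone 5 and 9.42 and 9.36 on clone 1, against 10.90 on V1 and 10.77 and 10.99 on V3. Every S100P-labelled array lay below every vector array, and LIMA1 fell by 1.28 (SE 0.15, 2.44-fold, limma adjusted p = 0.00812). Without V3 its adjusted p was 0.059, and its other probe sets gave -1.31 (0.055) and -0.89 (0.288).

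PDLIM1, an adaptor on alpha-actinin, read 11.23 and 11.17 on clone 5 and 11.05 and 11.11 on clone 1, against 11.73 on V1 and 11.59 and 11.77 on V3. It fell by 0.56 (SE 0.09, limma adjusted p = 0.0348), and the call was lost without any 1 array other than V1, with an adjusted p of 0.0511 to 0.149. RHOQ, a GTPase related to CDC42, read 10.29 and 10.00 on clone 5 and 10.36 and 10.34 on clone 1, against 9.12 on V1 and 9.52 and 9.63 on V3. It rose by 0.85 (SE 0.16, limma adjusted p = 0.0492), and that call too was lost without any 1 array other than V1, with an adjusted p of 0.0752 to 0.163. The other RHOQ probe sets gave 0.33 to 0.62 and none passed. With the arrays of each clone averaged first, none of these 4 passed in limma (adjusted p of 0.098 to 0.436). By list, 1 of 26 cross-linkers, stress fibre and membrane linkers rose and 2 fell, and 1 of 29 small GTPases and their regulators rose.

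The other 5 lists had no gene past the threshold in limma at the probe set of highest mean. Their largest differences were 0.61 for the cofilin phosphatase SSH1 (limma adjusted p = 0.0925), -0.23 for the class I myosin MYO1E (0.429), 1.24 for CARMIL1, a regulator of capping protein (0.223), -0.71 for WIPF1, a partner of WASP proteins (0.0946), and -0.30 for MRTFA, a cofactor of SRF (0.784). CARMIL1 read 7.58 and 6.99 on clone 5 and 7.14 and 7.15 on clone 1, against 5.10 on V1 and 6.30 and 6.76 on V3. Its arms did not overlap, with V1 far below V3, and without V3 its difference was 2.11. The other WIPF1 probe sets gave -1.48, -0.43 and -0.18 (limma adjusted p = 0.0872, 0.402 and 0.756). At the first of these the arms did not overlap, and 5 of the 7 arrays lay below the array median.

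Across the 7 arrays, and at the probe set of highest mean alone, 20 of the 39 genes stayed within a range of 0.5 on the log2 scale. They were RHOA, RHOC, RAC1, ROCK2, MYH9, MYH10, CFL1, CAPZA1, CTTN, TPM2, CNN1, CNN2, TAGLN, ACTA2, ACTN1, ACTN4, FSCN1, LIMCH1, PXN and MSN. Other probe sets of some of these ranged more, such as 2.26 for MYH10, 1.48 for PXN, 1.27 for CTTN, 0.77 for RAC1 and 0.75 for CFL1. At the probe set of highest mean a range of 1 or more was seen in 6, namely CRACD (4.32), PPP1R9A (3.35), MYLK (2.68), RHOB (1.33), RND3 (1.26) and ZYX (1.07). CRACD and PPP1R9A were the 2 genes that lay below the array median on all S100P-labelled arrays and above it on all vector arrays.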

How the data were processed

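RNA of 4 Panc1 clones was measured on 7 Affymetrix HG-U133 Plus 2 arrays. The authors made the deposited values with RMA, per the submitters' processing notes; the version is not given in the sources used here. The log2 scale of the deposited table was read from its values. Of 54675 probe sets, 62 controls were left out and 54613 tested; 41091 had 1 symbol in the platform annotation, and symbols were checked through RefSeq (41037 matched, 0 updated). The 39 genes have 117 probe sets. The arms were fitted in R 4.3.3 with limma 3.58.1 (statmod 1.5.0) and the clone as a random block (consensus correlation 0.287). That value was applied to all probe sets, so for genes such as CRACD, PPP1R9A and MYLK, whose clones within an arm lay far apart, p may be understated. Clones were compared in a fit with 4 clones as fixed effects and 3 residual degrees of freedom. P-values were two-sided and Benjamini-Hochberg adjusted across all of these, with a threshold of 0.05. Exact permutation tests used scipy 1.17.1, figures matplotlib 3.10.9. The fits were also run on simulated data. For the arms these had the same within-clone correlation at every probe set, so they do not cover genes whose clones lie far apart.

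Genes described in full (20) were those called at any probe set between the arms, those called between clones of an arm, and then those of largest difference. The genes and lists were chosen with earlier results of these data known. Scanner files and detection calls were not used, and precision is limited by how few arrays there are. The labels leave unsaid if a and b were separate cultures, so the p-values speak for the spread between these arrays, which may be technical. Any 2 arrays shared at most 9.21% identical values. Alternatives were the clone block, clone averages, centring, a second quantile normalization, a filter on dim probe sets (at least 6 on 2 arrays), gene means, and leaving out arrays or clones.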

Additional observations from a re-analysis of the deposited data

Results flagged for a closer look

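Zyxin (ZYX) had 1 array far from the others of its arm. It read 7.94 on clone 5 array a and 8.72 to 8.82 on the other 3 S100P-labelled arrays, against 8.59 to 9.01 on the vector arrays. The gap was 0.888 of the range of the 4 S100P-labelled arrays, above the 95% critical value of Dixon's test for 4 samples. Of the 20 genes described in full, 1 exceeded it, and chance gives about 1 in 20.

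The effect relative to the vector clones differed between the S100P-labelled clones, by limma's test of clone 5 minus clone 1, in RHOB (-1.22), RND3 (-1.21) and MYLK (-1.33). RHOB lay below the vector clones in clone 5 and above them in clone 1, MYLK lay below them in both, and RND3 differed from them in clone 1 (0.78) and not past the threshold in clone 5 (-0.43). These calls were lost when any array of clone 5, clone 1 or V3 was left out.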

How the results depend on the processing

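Of the 39 genes, the 2 called between the arms became 4 without the clone block, adding MYL9 and VCL, 0 with the arrays of each clone averaged first (limma, 4263 probe sets at an unadjusted p under 0.05), 1 with gene means, and 1 to 2 without any 1 array. The 2 were CRACD and PPP1R9A after centring and after quantile normalization, CRACD and MYLK with the filter on dim probe sets (where PPP1R9A could not be fitted) and without clone 5; 3 were called without clone 1 (CRACD, MYLK and RHOB) and without V3 (CRACD, ARPC2 and DIAPH1). CRACD passed in 15 of 16 alternatives, PPP1R9A in 5 of 15 and MYLK in 3 of 16. The median over the 39 genes stayed below 0 in all of them, between -0.162 and -0.048. All probe sets called between the arms numbered 611, and 1103 without the clone block, 8 with clone averages, 402 with the filter, 1355 without clone 5, 1675 without V3 and 159 to 1708 without any 1 array. Without any 1 array the count of the 39 called was 0 to 3 for clone 5 minus clone 1 (3), 0 to 1 for V1 minus V3 (6), 2 to 7 for clone 1 minus vector (10) and 2 to 4 for clone 5 minus vector (6). Those fits have fewer residual degrees of freedom. Clone 5 minus vector gave 13 with the filter. The sign turned for RHOB without clone 5 (0.38), RND3 without clone 1 (-0.68) and without single arrays (-0.29 to 0.27), TPM1 without V3 (-0.089), CDC42 as a gene mean (-0.062) and MRTFA without clone 5 (0.019). None of these 5 had passed, and the cause was not tested. With all arrays kept, calls between clones were lost with gene means for RHOB, DIAPH1 and PPP1R9A and with centring for TPM1. No paired analysis was possible because the letters a and b name arrays within a clone and pair no arrays across the arms. Depth has no count here, and dim probe sets such as those of CRACD, PPP1R9A and RAC2 have no detection call.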
